A study of Homo sapiens with 21 samples.

Results

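The LINC and antisense RNAs of an iPSC-to-cardiomyocyte differentiation were those transcripts of 6 differential expression tables whose gene symbol was LINC followed by digits, or ended in -AS and a digit. This rule found 21 of 36579 table rows, which held 13 of 21537 transcripts and 11 of 11851 named genes. There were 7 LINC genes (LINC00261, LINC00514, LINC00674, LINC00680, LINC00869, LINC00888 and LINC01145) and 4 antisense genes (EMC3-AS1, SLC44A3-AS1, SVIL-AS1 and TP73-AS1). Transcripts with a q-value above 0.05 are left out of the tables, so the number of LINC and antisense transcripts that were tested is unknown, and a member that is not listed was not shown to be unchanged. An RNA of this kind may also be missing because the annotation used for the quantification did not hold it. Poly-A RNA had been sequenced from PGP1 cells, an established human iPSC line, as iPSCs and after differentiation to mesoderm (M), cardiac mesoderm (CMes), cardiac progenitors (CP) and cardiomyocytes (CM), with 3 wild-type libraries at each of 5 stages. According to the methods, CMs were selected with lactate in medium without glucose once they beat, so wild-type CP and CM differ in this selection as well as in stage. A further 6 libraries came from beating CMs of 2 UBE2B-/- lines, UBE2B-/-1 and UBE2B-/-2, with 3 libraries each, and were compared with the wild-type CMs in a fit of 9 libraries. Each line grew from picked colonies of edited PGP1 cells and was made with a different transfection protocol, so what is particular to a clone and what follows from the edit cannot be told apart within 1 line. UBE2B encodes an E2 enzyme of the complex that ubiquitylates histone H2B. In UBE2B-/-1 the UBE2B transcript ENST00000499038.2 was lower by a log2 change of -1.91 ± 0.53 (SE, q = 0.0113), and no UBE2B transcript was listed for UBE2B-/-2. The paper reports inactivating mutations in both lines, checked by sequencing cDNA, and decreased H2B ubiquitylation, so RNA level is not its evidence for the knockouts. Marker genes were set beside the stage labels. Of 4 mesoderm markers, 3 were called higher at iPSC to M, 2 higher and 1 lower at M to CMes, and 4 lower at CMes to CP. Of 6 pluripotency markers, 1 was called lower at iPSC to M, 3 at M to CMes, 5 at CMes to CP and 5 at CP to CM. All 10 cardiomyocyte markers were called higher at CP to CM. Values of single libraries and the depth are not known here. Levels are geometric means of estimated counts plus 0.5 over the 3 libraries of a group, not corrected for transcript length, and errors are standard errors of the Wald test in Sleuth unless stated.

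LINC is the symbol given to long intergenic noncoding RNAs, which are transcribed, and mostly spliced and polyadenylated, from loci between protein-coding genes. A symbol in -AS marks an RNA transcribed from the strand opposite to the gene whose name it carries, over it or in its vicinity. Some such RNAs act on transcription of the neighbouring gene in cis, some act elsewhere, and for many no function is known. Many are restricted to a cell type and sit at low levels, so that in differentiating cells they can mark a lineage as its protein-coding genes do.

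In GENCODE 44 on GRCh38, 12 of the 13 transcripts were matched by their identifier without the version, and 8 of these 12 had the biotype lncRNA. LINC00261 (listed transcript ENST00000638550.1, not matched) is a lncRNA gene at chr20:22547663-22578642 on the minus strand, 2356 bases from the forkhead gene FOXA2 at chr20:22580998-22585455, which lies on the same strand. The transcript listed as LINC00514, ENST00000573315.2 at chr16:2988256-3002016, is annotated as a protein-coding transcript of GREP1 with 35 exons, so for this member the noncoding label does not hold in the newer annotation. The TP73-AS1 transcripts ENST00000636630.1 (chr1:3737594-3747023) and ENST00000649348.1 (chr1:3737539-3746791) have the type processed transcript in a gene typed as a transcribed unitary pseudogene. SLC44A3-AS1 ENST00000452922.5 (chr1:94657533-94820281, minus strand) has the same transcript type in a transcribed processed pseudogene. EMC3-AS1 ENST00000326237.3 (chr3:9986911-10005244, plus strand) and LINC00674 ENST00000435469.2 (chr17:68101871-68115523, plus strand) are lncRNA transcripts that GENCODE 44 assigns to genes without a symbol. The other lncRNA transcripts were LINC00680 (chr6:57946083-57950399, minus), LINC00869 (chr1:149607307-149647610, plus), LINC01145 (chr1:145200691-145215872, minus), SVIL-AS1 (chr10:29409534-29422372, plus) and LINC00888 (ENST00000471496.5, chr3:183447582-183456014, and ENST00000468380.1, chr3:183447649-183456013, plus). Spliced lengths ran from 494 nucleotides for LINC01145 to 3772 for TP73-AS1 ENST00000649348.1. Transcripts of the lncRNA biotype were rare in every table, at 0.411% to 0.901% of the matched transcripts, and are 22.3% of all transcripts in GENCODE 44. How many of them were in the annotation used for the quantification, and how many were tested, is not known. The low shares are therefore no measure of how many such RNAs were expressed or changed.

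Several of these transcripts resemble other loci closely, which bears on how reads were assigned to them. Of the 31-base stretches of LINC01145 ENST00000616993.1, 86.6% also occurred in transcripts of another gene, 80.0% in ENSG00000274265, and 204 of its 464 stretches in LINC00623. Of LINC00869 ENST00000620190.1 80.1% did, with 79.8% in LINC00623 and 15.3% in LINC01145. The 3 LINC genes lie on chromosome 1, in regions rich in duplicated segments. The following stretches of 120 bases are shown because they make this likeness visible. They start at base 15 of LINC00869, base 34 of LINC00623 (ENST00000613486.2) and base 1 of LINC01145, and capitals mark the position that differs.

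LINC00869: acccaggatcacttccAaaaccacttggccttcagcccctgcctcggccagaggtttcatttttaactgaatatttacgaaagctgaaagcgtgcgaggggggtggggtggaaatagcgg
LINC00623: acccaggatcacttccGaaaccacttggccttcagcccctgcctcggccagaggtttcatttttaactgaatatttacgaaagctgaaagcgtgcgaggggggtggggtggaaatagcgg
LINC01145: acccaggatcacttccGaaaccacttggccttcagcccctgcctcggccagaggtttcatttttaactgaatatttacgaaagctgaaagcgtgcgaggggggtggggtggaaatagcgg

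LINC00623 and LINC01145 each differed from LINC00869 at 1 of these 120 bases. EMC3-AS1 shared 46.2% of its stretches, 40.9% with ENSG00000206567 on the opposite strand, and LINC00680 shared 43.8%, 36.7% with GUSBP1, a pseudogene of the beta-glucuronidase gene. SVIL-AS1 shared 27.6%, most of it, 24.9%, with PTCHD3P1 on the opposite strand, while the TP73-AS1 transcripts shared 14.8% and 10.4%. The transcript listed as LINC00514 shared none of its 2032 stretches. A strand setting for the quantification is not given in the sources used here, so for EMC3-AS1 and SVIL-AS1 reads from the partner on the opposite strand cannot be told apart. LINC01145, LINC00869 and LINC00680 have their shared stretches in transcripts of the same orientation. Technical variance, from sampling and assigning reads together, made up 21.2% of the variance used in the test for LINC01145 at CP to CM. For LINC00680 it was 20.8% there, and both were below the median of 23.1% over all transcripts listed. It was 22.5% for EMC3-AS1 and 18.8% for LINC00680 at M to CMes, also below the median of 23.8%. For LINC00869 it was above the median in all 3 tables that list it, at 29.2%, 45.9% and 32.1%.

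**Figure D1:**
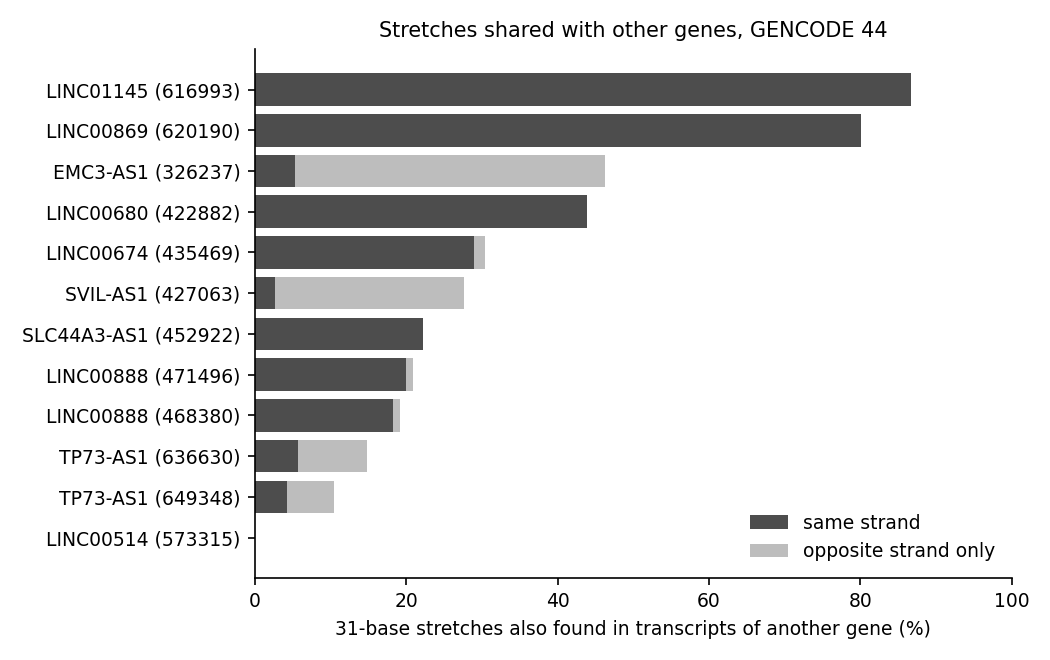
Share of the 31-base stretches (%) of each of the 12 matched transcripts that also occur in transcripts of another gene in GENCODE 44, in the same orientation (dark) or on the opposite strand only (light). Numbers in brackets are the last 6 digits of the transcript identifier, and LINC01145 (86.6%) and LINC00869 (80.1%) stand above the other transcripts.

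A transcript was called where its q-value was at most 0.05 and its absolute effect on the natural-log scale at least log2(1.5), which is a log2 change of 0.84 or 1.79-fold. At the iPSC to M step 1 member was listed and none was called, while 1.62% of all 68446 transcripts tested were called lower and 1.24% higher. At M to CMes 5 were listed, with 3 called lower and 1 higher (background 2.65% lower and 3.81% higher of 70285). At CMes to CP 2 were listed, with 1 called lower and 1 higher (2.63% and 3.8% of 71328). At CP to CM 8 were listed, with 2 called lower and 5 higher (6.99% and 8.25% of 69937). For UBE2B-/-1, 1 was listed and called lower (background 1.72% lower and 2.18% higher of 65457), and for UBE2B-/-2, 4 were listed, with 2 called lower and 2 higher (1.53% and 2.46%). With a t distribution in place of the normal distribution of the Wald test, no member was called in any comparison. Since the number of members tested is not known, no share of members can be set against these percentages. The median absolute log2 change of the listed members was 1.22 at M to CMes, where the median over all listed transcripts was also 1.22 and fell on EMC3-AS1 itself. At CMes to CP it was 1.21 for the 2 members and 1.06 for all listed transcripts, and at CP to CM 1.58 and 1.83. For UBE2B-/-2 it was 5.96 for the 4 members and 1.41 for all listed transcripts, in a table where 3 of the 4 rest on a group at or near 0 counts. A single member was listed at iPSC to M (0.80, with 0.98 over all) and for UBE2B-/-1 (1.15 and 1.33). Of 117 names on lists of LINC and antisense RNAs of pluripotent cells, endoderm, muscle and heart, developmental transcription factor genes, HOX clusters, contractile and ion-handling genes and signaling genes, only LINC00261, the endoderm list's single name, was listed. Whether the other names were absent from the annotation used, not tested, or above the q-value limit cannot be told apart.

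**Figure D2:**
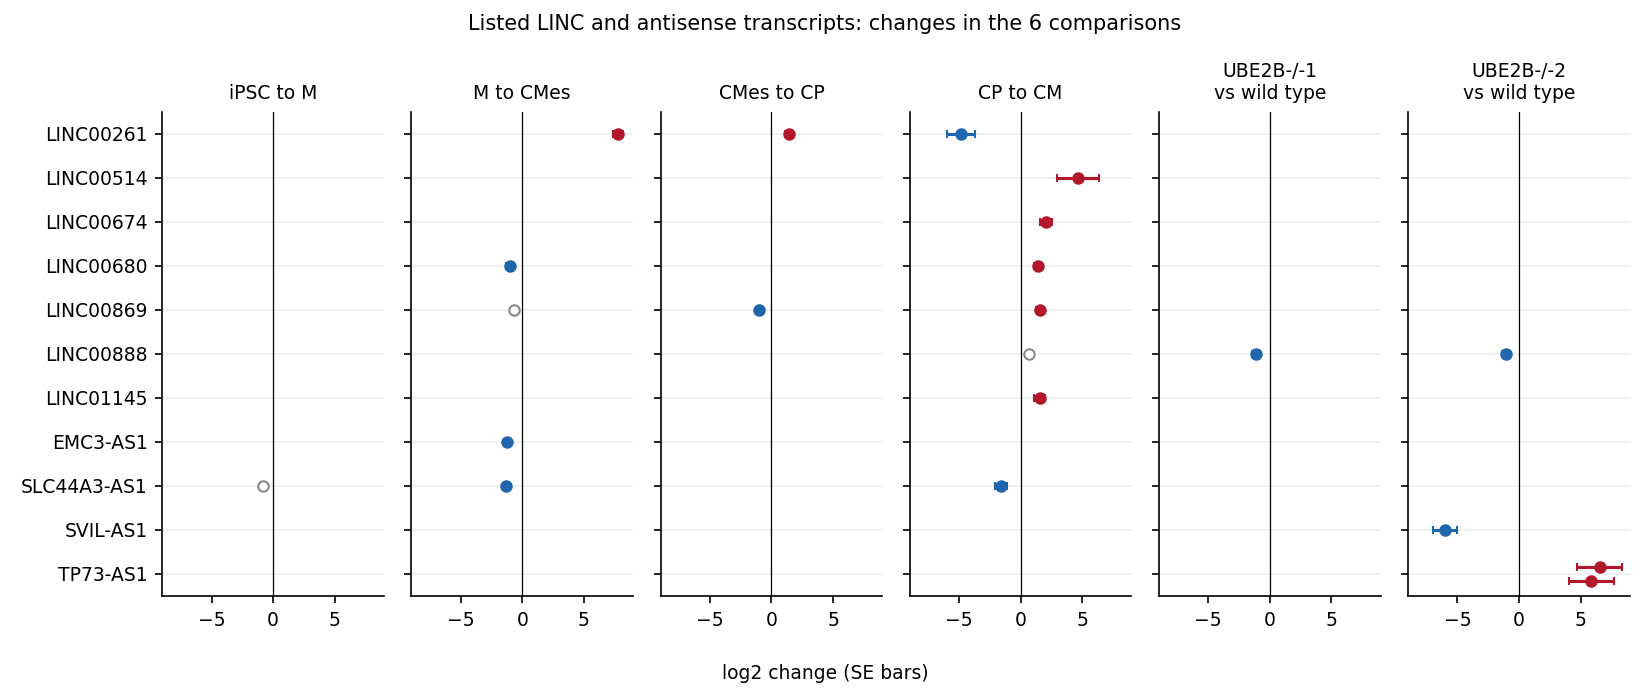
Log2 change with its SE (x axis) of each listed LINC or antisense transcript (rows) in the 6 comparisons (panels), each with 3 libraries per group. Red and blue points were called higher and lower, and open grey points were listed but under the fold limit. LINC00261, SVIL-AS1, TP73-AS1 and LINC00514 lie beyond a log2 change of 4 in at least 1 panel, and the other members lie closer to 0.

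LINC00261, a noncoding RNA known from definitive endoderm, had the largest change of the members in the stage series. Its level rose 223-fold from 8.77 at M to 1959 at CMes (log2 change 7.80 ± 0.41, q = 6.72e-79), which placed it 27th by p-value among the transcripts of that comparison. The SD between replicates within a stage was 0.50 on the log2 scale, so the levels at M and CMes lay far apart against this spread. Technical variance, from sampling and assigning reads, made up 55.5% of the variance used in the test, above the median of 23.8% over all transcripts listed. It rose again from 1972 at CMes to 5304 at CP, a log2 change of 1.43 ± 0.29 (q = 3.15e-05). It then fell from 4697 at CP to 163.7 at CM, a log2 change of -4.84 ± 1.11 (q = 0.000176). Replicates differed much more in that last fit, with an SD of 1.36 on the log2 scale, while the median over all transcripts listed there was 0.34. Which library or stage carried this spread is not known. Each fit has its own scale. Once the fits were put on 1 scale, the CM level (184.8) was above the M level (8.82) by 4.39 on the log2 scale, a difference given without a test. LINC00261 was not listed at the iPSC to M step or for a UBE2B-/- line.

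The neighbouring gene FOXA2, which encodes a forkhead transcription factor of endoderm, had changes of the same sign at each of these 3 steps, of which those at M to CMes and CP to CM were called. Its transcript ENST00000419308.6 rose from 97.4 at M to 891 at CMes (log2 change 3.19 ± 0.94, q = 0.0106). Its change at CMes to CP, 0.75 ± 0.16 (q = 8.11e-05), was listed but under the fold limit. It fell from 1338 at CP to 13.7 at CM (log2 change -6.61 ± 2.49, q = 0.0442), again with a large error. FOXA2 had already risen from 0 counts in the iPSC libraries to a level of 91.1 at M (q = 1.08e-08), a step at which LINC00261 was not listed. No fold is given for that rise, since the fitted value rests on the 0.5 added to every count.

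**Figure D3:**
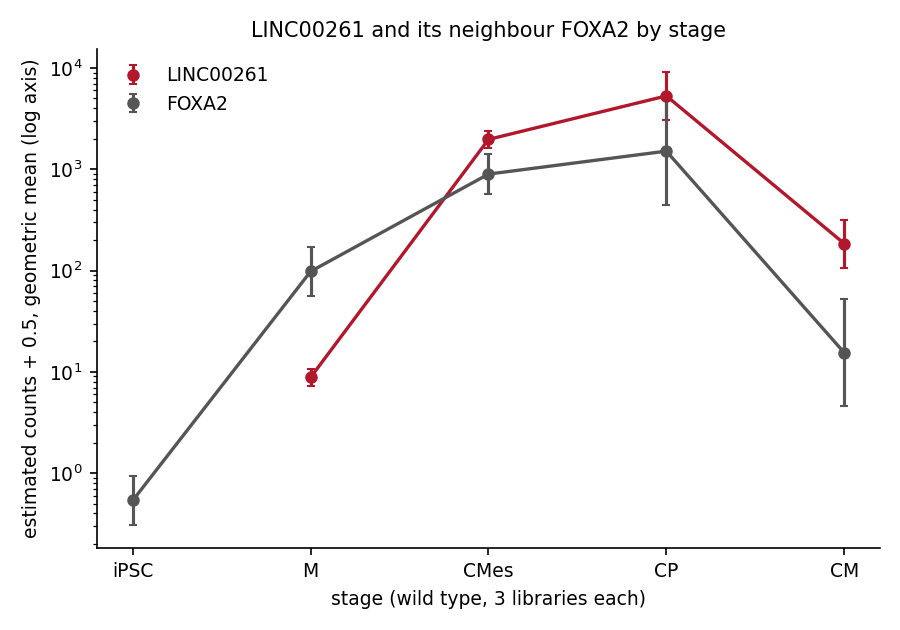
Geometric mean of estimated counts plus 0.5 (log axis) of LINC00261 (red) and FOXA2 (grey) at each stage with a listed comparison, 3 wild-type libraries per stage, with the fits put on 1 scale and bars for 1 SE of the level (the larger where 2 fits give it). Both peak at CP, LINC00261 at 5304 and FOXA2 at 1511, and the bars are widest for FOXA2 at CP and CM.

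Other genes of endoderm and liver moved with LINC00261. Of 8 such markers, 5 were called higher at M to CMes (APOA1, APOA2, FOXA2, HNF4A and SOX17) and none lower. The transcription factor gene SOX17, for example, rose by 10.58 ± 0.64 on the log2 scale. At CMes to CP, 5 were called higher, among them AFP (10.67 ± 0.65) and TTR (10.60 ± 0.76), which encode secreted proteins of the fetal liver, and SOX17 was called lower. At CP to CM, 6 were called lower and none higher. The summed level of those listed was 100.4 at M and 2844 at CMes in the first of these fits, 2873 at CMes and 29515 at CP in the second, and 20457 at CP and 861 at CM in the third. Each sum covers the markers and transcripts listed in that fit, which differ between fits, so sums are comparable within a fit only. Rises up to CP were not particular to these markers. Of 7 fibroblast and stromal markers, 5 were called higher at M to CMes and 5 at CMes to CP, with none lower. At CP to CM, 4 of the 7 were called lower and 2 higher. Of 8 cardiac mesoderm and progenitor markers, 5 were called higher at M to CMes and 6 at CMes to CP. At CP to CM, 5 of the 8 were called higher and 1 lower. In bulk samples, fewer cells of a type and less RNA per cell cannot be told apart, and the part of endoderm cells in the change of LINC00261 was not tested. The lactate selection falls between CP and CM, so for the fall of LINC00261 at that step it cannot be told apart from the stage.

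The promoter of LINC00261 is shown because LINC00261 and FOXA2 changed together. It runs from 250 bases before to 50 after the start in RefSeq (GRCh38.p14, chr20:22578593-22578892, minus strand, written 5′ to 3′). Capitals mark matches to the forkhead motif TGTTTAC and to the TATA motif TATAAA, each searched on both strands.

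LINC00261: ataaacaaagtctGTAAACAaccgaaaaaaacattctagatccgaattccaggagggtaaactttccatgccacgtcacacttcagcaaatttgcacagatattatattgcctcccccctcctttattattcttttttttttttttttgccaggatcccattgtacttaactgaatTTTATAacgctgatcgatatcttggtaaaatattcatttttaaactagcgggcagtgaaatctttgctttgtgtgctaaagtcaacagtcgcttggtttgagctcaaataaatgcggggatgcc

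The forkhead letters occurred once, starting at position -237 from the start of the RNA and read on the strand opposite to LINC00261, and the TATA letters once, at -74, also on the opposite strand. The forkhead motif was present in 3.42% and the TATA motif in 11.5% of 35116 RefSeq promoters of this length. Neither the GATA motif AGATAA, present in 10.3%, nor the T-box motif AGGTGTGA, present in 0.98%, occurred in it. The promoter had a GC content of 37.0%, below the median of 58.7% over all promoters. These matches are descriptions of letters, not of binding.

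No member other than LINC00261 was called higher in the first 3 steps. SLC44A3-AS1 starts 61 bases from the start of SLC44A3, a choline transporter-like gene on the other strand. Its level was 593 in iPSCs and 341 at M, a log2 change of -0.80 ± 0.21 (q = 0.00487) that was under the fold limit. It fell from 365 at M to 148 at CMes (-1.30 ± 0.19, q = 5.99e-10) and from 130.6 at CP to 42.6 at CM (-1.61 ± 0.50, q = 0.0102). The step between them was not listed, and the levels at CMes and CP on 1 scale were 149 and 147, a log2 difference of -0.01. From iPSC to CM the level went from 639 to 48.1, a log2 difference of -3.73 over all steps, given without a test. SLC44A3-AS1 was thus listed as lower at 3 of 4 steps, and SLC44A3 itself was listed at none.

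EMC3-AS1 lies within the span of EMC3, which encodes a subunit of the endoplasmic reticulum membrane protein complex, with no exon overlapping an exon of EMC3. Its level fell from 184 at M to 79.0 at CMes, a log2 change of -1.22 ± 0.24 (q = 2.19e-05). LINC00680 fell at the same step, from 152.6 to 74.5 (-1.04 ± 0.28, q = 0.00486). LINC00869 was lower there by a log2 change of -0.68 ± 0.22 (q = 0.0240), under the fold limit. The SD between replicates was 0.25, 0.35 and 0.19 on the log2 scale for these 3 transcripts in turn, so each difference exceeded the replicate spread. LINC00869 fell from 154 at CMes to 77.3 at CP, a log2 change of -0.996 ± 0.29 (q = 0.00724), and was the only member called lower at that step.

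At CP to CM, 5 members were called higher. LINC00869 rose from 68.5 to 199.5, a log2 change of 1.54 ± 0.33 (q = 4.35e-05). LINC00680 rose from 58.2 to 154 (1.41 ± 0.34, q = 0.000511). These rises reversed their earlier falls. On 1 scale LINC00869 was at 247 at M and 225 at CM, a log2 difference of -0.13, and LINC00680 at 153.6 and 174, a difference of 0.18. LINC01145 rose from 33.2 to 97.2 (1.55 ± 0.46, q = 0.00657), close to the change of LINC00869, with which it shares part of its sequence. LINC00674 rose from 25.5 to 105.7 (2.05 ± 0.47, q = 0.000196). LINC00514, whose listed transcript belongs to GREP1, a glycine-rich extracellular protein gene, rose from 2.23 to 55.3 (4.63 ± 1.71, q = 0.0388). Its replicates had an SD of 2.09 on the log2 scale, the largest of the members in the stage fits. The CP level of 2.23 is low and includes the 0.5 added to each count. The size of the LINC00514 change therefore depends on that 0.5. LINC00888 ENST00000468380.1 went from 167 to 275, a log2 change of 0.72 ± 0.23 (q = 0.0118) that was under the fold limit.

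**Figure D4:**
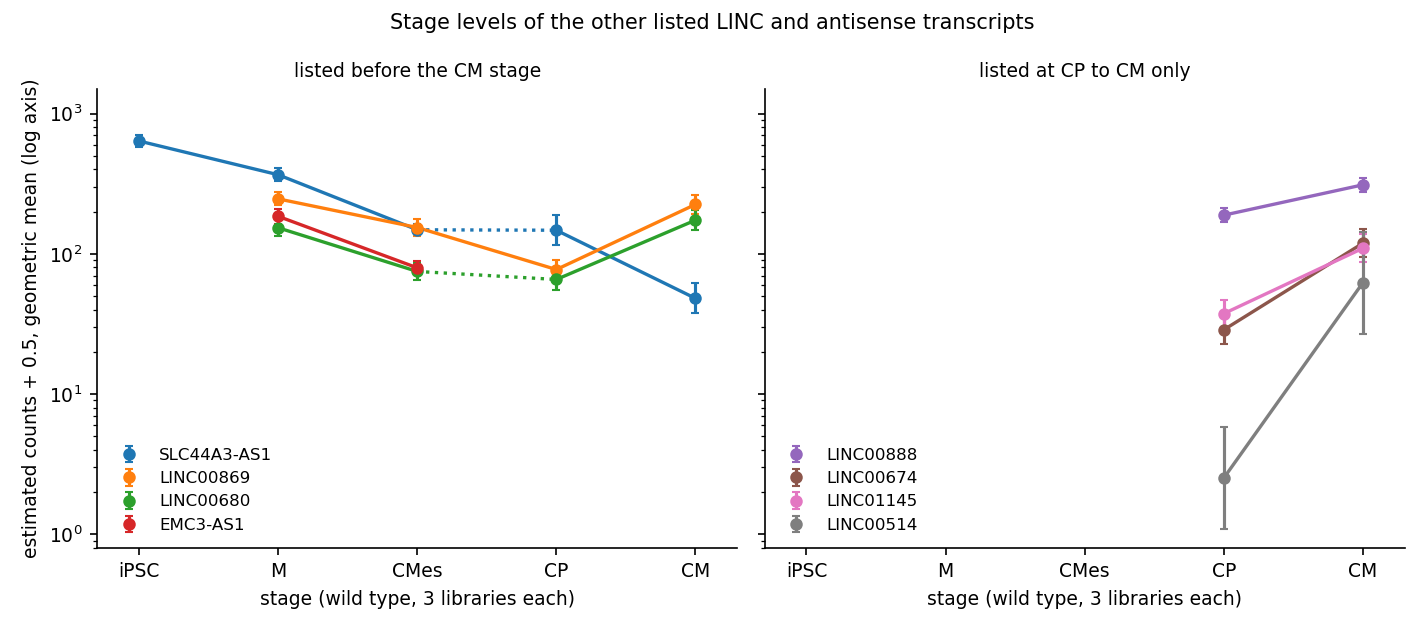
Geometric mean of estimated counts plus 0.5 (log axis) by stage for the other members listed in the stage comparisons, 3 wild-type libraries per stage, with the fits put on 1 scale and bars for 1 SE of the level. Solid lines join stages of a listed comparison and dotted lines a step that was not listed. LINC00869 and LINC00680 fall to CP and rise to CM, while SLC44A3-AS1 goes from 639 in iPSCs to 48.1 at CM.

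The promoters of LINC00869 and LINC01145 are shown because both rose at this step. They come from RefSeq (GRCh38.p14), at chr1:149606762-149607061 on the plus strand and chr1:145216003-145216302 on the minus strand. Neither window reaches the start of the listed transcript, at 149607307 for LINC00869 and 145215872 for LINC01145. Capitals mark the longest run that both hold.

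LINC00869: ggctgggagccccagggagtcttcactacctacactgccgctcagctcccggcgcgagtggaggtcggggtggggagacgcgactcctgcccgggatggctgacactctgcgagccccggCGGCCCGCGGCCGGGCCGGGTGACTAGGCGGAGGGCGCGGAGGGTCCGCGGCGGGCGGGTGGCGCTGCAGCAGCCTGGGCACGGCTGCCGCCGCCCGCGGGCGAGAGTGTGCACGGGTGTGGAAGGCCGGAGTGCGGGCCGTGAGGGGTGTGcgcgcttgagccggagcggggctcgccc
LINC01145: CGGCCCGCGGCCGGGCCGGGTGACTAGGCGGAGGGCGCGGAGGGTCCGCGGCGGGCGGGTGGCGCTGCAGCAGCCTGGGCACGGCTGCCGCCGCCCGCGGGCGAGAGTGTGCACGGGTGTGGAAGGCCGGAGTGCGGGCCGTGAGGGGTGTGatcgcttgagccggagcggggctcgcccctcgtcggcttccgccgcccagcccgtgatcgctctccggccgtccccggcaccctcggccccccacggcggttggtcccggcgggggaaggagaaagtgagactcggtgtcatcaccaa

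The run was 152 bases long, and over the 180 bases that align without a gap 178 were identical (98.9%). No match to the forkhead, GATA, TATA or T-box letters occurred in either window, and the GC content was 77.0% and 76.7%. The promoter of LINC00674 held the T-box letters once, at position -98 from the RefSeq start. That window, which ends at chr17:68101604, does not reach the start of the listed transcript at 68101871. Of the 11 genes, 6 had a promoter in the table under their own symbol.

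In the UBE2B-/- CMs, LINC00888 was the only member called in both lines. Its transcript ENST00000471496.5 had a level of 268 in wild type, 121 in UBE2B-/-1 and 131.9 in UBE2B-/-2. The log2 changes were -1.15 (q = 0.0194) and -1.03 (q = 0.0465), each ± 0.33. Both lines lay below wild type by more than the SD between replicates of 0.23 on the log2 scale. The background of transcripts called in both lines was 0.909% for lower and 1.52% for higher. The difference between the lines for LINC00888 was 0.12 ± 0.33 on the log2 scale (UBE2B-/-2 minus UBE2B-/-1), with a 95% interval of -0.53 to 0.78, and did not pass the test. They share the wild-type libraries, so their calls are not independent. The mean of the 2 changes was -1.09 ± 0.29. These values are for ENST00000471496.5 only. The gene's transcript ENST00000468380.1, at 275 in wild-type CMs in the CP to CM fit, was not listed for either line. A shift between transcripts of LINC00888 was not tested. Of 10 cardiomyocyte markers, 7 were called lower in UBE2B-/-1 and 8 in UBE2B-/-2, and none higher. Of 7 fibroblast and stromal markers, 3 and 6 were called higher, and none lower. The part of a different make-up of the cultures in the change of LINC00888 was not tested. The nearest protein-coding gene, MCF2L2, 18804 bases away on the other strand, was not listed for either line.

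**Figure D5:**
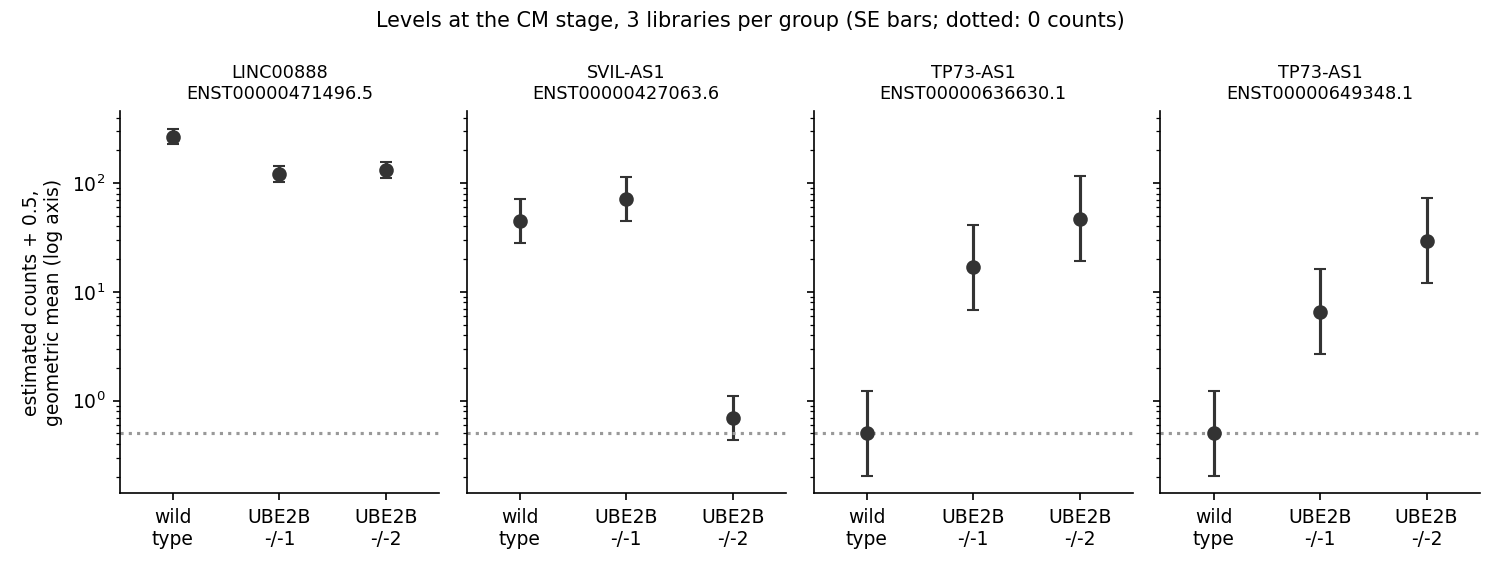
Geometric mean of estimated counts plus 0.5 (log axis) in wild-type, UBE2B-/-1 and UBE2B-/-2 CMs, 3 libraries per group, for the 4 member transcripts listed in the UBE2B-/- comparisons, with bars for 1 SE of the level and a dotted line at 0 counts. The LINC00888 transcript is lower in both lines, and SVIL-AS1 is near 0 in UBE2B-/-2 only. The TP73-AS1 transcripts are at 0 in wild type under the solution given in the text.

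SVIL-AS1, named for SVIL, which encodes supervillin, an actin-bound membrane protein abundant in muscle, was nearly absent from UBE2B-/-2. Its transcript ENST00000427063.6 was lower than in wild type by a log2 change of -6.02 ± 0.95 (q = 1.51e-07), placing 106th by p-value, and was not listed for UBE2B-/-1. The variance columns of the fit leave 2 possible values for UBE2B-/-1. With the value of -6.69, which is -7.03 standard errors from 0, the transcript would have been listed, so the other value, 0.67, was taken. The levels were then 45.3 in wild type, 72.0 in UBE2B-/-1 and 0.70 in UBE2B-/-2. A level of 0.70 corresponds to between 0.59 and 0.86 estimated counts in all 3 UBE2B-/-2 libraries together, so the log2 change rests on the 0.5 added to each count and is no bound. UBE2B-/-2 was below UBE2B-/-1 by -6.69 ± 0.95 on the log2 scale (Wald test with a normal distribution, q = 6.60e-08 with Benjamini-Hochberg adjustment over all 65457 transcripts). With a t distribution on 6 degrees of freedom it did not pass (q = 1). Of 2103 transcripts for which the difference between the lines was listed or could be solved, 14 (0.666%) differed by this test. A transcript listed for 1 line could be solved only where that difference was already large, so the choice of these transcripts was not independent of it. SVIL-AS1 replicates had an SD of 0.67 on the log2 scale. The SVIL gene, 34966 bases from the transcript and on the other strand, was lower in both lines, in 4 transcripts called for UBE2B-/-1 and 2 for UBE2B-/-2. Its most abundant listed transcript, ENST00000355867.8, changed by -1.20 ± 0.25 in UBE2B-/-1 and by -0.84 ± 0.25 in UBE2B-/-2, the latter just under the fold limit. SVIL itself had risen at CP to CM (2.18 ± 0.14, q = 7.52e-51 for ENST00000375400.7), and SVIL-AS1 was not listed there.

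The promoter of SVIL-AS1 is shown because this RNA separated the lines. It is the RefSeq window at chr10:29409284-29409583 (GRCh38.p14, plus strand), around the start of the listed transcript, and none of the 4 motifs occurred in it, so no letters are in capitals.

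SVIL-AS1: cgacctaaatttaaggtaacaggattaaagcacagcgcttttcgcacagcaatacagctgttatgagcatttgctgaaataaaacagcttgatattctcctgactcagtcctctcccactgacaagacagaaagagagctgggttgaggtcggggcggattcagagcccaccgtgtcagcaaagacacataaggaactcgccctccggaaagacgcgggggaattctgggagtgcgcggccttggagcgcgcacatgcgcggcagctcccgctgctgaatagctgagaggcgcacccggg

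Its GC content was 54.7%, and it held 19 CG dinucleotides, while the median over all promoters was 14.

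TP73-AS1 lies beside TP73, a gene of the p53 family, on the other strand, and an exon of both transcripts overlaps an exon of CCDC27. Its transcripts ENST00000636630.1 and ENST00000649348.1 were higher in UBE2B-/-2 by log2 changes of 6.56 ± 1.83 (q = 0.0127) and 5.89 ± 1.83 (q = 0.0329). For both, a solution of the fit put the wild-type level at 0.5, that is 0 counts in all 3 wild-type libraries, with levels of 16.8 and 6.60 in UBE2B-/-1 and 47.3 and 29.7 in UBE2B-/-2. Under this solution, the UBE2B-/-2 levels were 13.5-fold and 8.48-fold above a floor of 3 counts in each wild-type library. These folds leave out the spread between replicates, which had an SD of 0.78 and 2.04 on the log2 scale. The fitted values for UBE2B-/-1 were 5.07 and 3.72 on the log2 scale, 2.78 and 2.03 standard errors from 0 and short of being listed. The other solution gave wild-type levels of 1.14 and 0.72 and UBE2B-/-1 levels of 3.21 and 3.22, and it cannot be told apart by the listing alone. Only the first solution put wild type on the 0.5 that a count of 0 gives, to within 1.25e-06 and 9.99e-16. Technical variance, from sampling and assigning reads, was 64.3% and 53.2% of the variance used in the test, while the median over all transcripts listed for that line was 14.2%. At these low levels a shift of reads between transcripts of the same gene was not tested. TP73 was not listed in any comparison.

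With the transcript of the highest mean standing for each gene, no antisense member was called together with its sense gene in either direction in any comparison. SVIL-AS1 and SVIL came closest in UBE2B-/-2, where that SVIL transcript was just under the fold limit and 2 other SVIL transcripts were called lower. Of the 4 sense genes, SLC44A3 and TP73 were not listed in any table, EMC3 was listed only at CP to CM, and SVIL in 5 of 6. Among the LINC members, LINC00261 was the only one whose nearest protein-coding gene was called in the same direction, at M to CMes and at CP to CM. LINC00514, LINC00674, LINC00869, LINC00888 and LINC01145 had a nearest protein-coding gene within 100 kb that was not listed in the comparisons in which they were called, and LINC00680 had none within that distance.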

How the data were processed

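RNA-seq of 21 libraries was used, 15 wild-type and 6 UBE2B-/-, grouped by their titles, with replicates from plates started at different times. Reads were trimmed by the authors (FASTX-Toolkit), assigned to transcripts of hg38 in Kallisto and tested in Sleuth. The annotation release is not given in the sources used here. The deposited tables hold the authors' own comparisons, that is, for each transcript a p-value and q-value of the Wald test, an effect on the natural log scale with its error, the mean natural log of the counts, and variance scores that the authors' fit gave. Columns of per-sample values number 0, so the depth of a library is unknown, and precision is given by the standard error. Since nothing else is given, the effects were used as measurements.

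Effects were converted to log2. The number of tests followed from rank, p-value and q-value, and q-values were recomputed (Benjamini-Hochberg). Group levels came from effect and mean. In the fit of 9 libraries, the other line's effect was solved from the variance scores, which leaves 2 values, checked on 1992 transcripts listed for both lines, a step chosen after seeing the data. Stage fits were put on 1 scale by their median offset (at most 0.175 on the log2 scale). The named-gene rule (5 largest absolute z per direction and comparison, 10 for both lines, fixed name lists, antisense genes called opposite to their sense gene, highest mean transcript per gene) here took in every listed member. Members and lists were chosen with earlier results of these data known. Sequences came from GENCODE 44 and RefSeq (GRCh38.p14). Scripts ran in Python 3.11.15 with NumPy 2.4.6, pandas 2.3.3, SciPy 1.17.1, Matplotlib 3.10.9 and were tested on simulated data. Alternatives were other fold and q-value limits, a t distribution, a minimum level, genes, annotated lncRNAs, and transcripts with little shared sequence. ChIP-seq and mouse data were not analysed here.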

Additional observations from a re-analysis of the deposited data

Results flagged for a closer look

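SVIL-AS1 differed between the UBE2B-/- lines by -6.69 on the log2 scale (UBE2B-/-2 minus UBE2B-/-1, standard error 0.95), and it stands out because the same contrast with wild-type CMs gave -6.02 in UBE2B-/-2 and 0.67 in UBE2B-/-1. The test of the difference gave an adjusted p of 6.60e-08, with a normal distribution in the Sleuth fit and the number of all transcripts tested. The difference itself was known for 2103 transcripts only. A transcript listed for 1 line could be solved only where the difference was already large, so this p-value is not independent of that choice. With a t distribution on 6 degrees of freedom the unadjusted p was 0.000413 and the adjusted p was 1. These log2 values rest on the 0.5 added to each count and are no bounds. The wild-type and UBE2B-/-1 levels were 12.9-fold and 20.6-fold above a floor of 3 counts in each UBE2B-/-2 library. These folds leave out the spread between replicates, which had an SD of 0.67 on the log2 scale. The value for UBE2B-/-1 was solved from the variance terms and not read from a table. Values of single libraries are not known, so no group could be searched for a library that stood apart.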

How the results depend on the processing

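No paired analysis was possible because the tables hold no values of single libraries, and leaving out a replicate was not run for the same reason. With a fold limit of ln(1.5), or with none, 1 member was called lower at iPSC to M, where 0 were called before. With a q-value limit of 0.01 the members called lower were 1 at CP to CM, 0 for UBE2B-/-1, 1 for UBE2B-/-2 and 0 in both lines, and those called higher for UBE2B-/-2 were 0. With a t distribution on 4 degrees of freedom, or 6 in the UBE2B-/- fit, 0 members were called in each comparison, in either direction and in both lines. That distribution left 0 calls among all transcripts at iPSC to M, at M to CMes and for each line, 1 at CMes to CP and 561 at CP to CM, and adjusted p-values of members ran from 0.112 to 0.700. Under it the difference of -6.69 for SVIL-AS1 also missed the threshold (q = 1). With a mean of at least 10 counts, or lncRNA biotypes only, 0 members were called higher for UBE2B-/-2, and counting genes gave 1. With lncRNA biotypes only, LINC00261, which was not matched, and SLC44A3-AS1, a processed transcript, dropped out, leaving 0 called higher at M to CMes and at CMes to CP and 0 called lower at CP to CM. Without transcripts sharing 40% or more of their stretches, a setting chosen after seeing the data, 1 was called lower at M to CMes, 0 lower at CMes to CP and 2 higher at CP to CM. SVIL-AS1 and SVIL counted as called lower together in UBE2B-/-2 (1 pair) with the SVIL transcript of the smallest p or with no fold limit, and LINC00261 and FOXA2 as called higher together at CMes to CP (1 pair) with no fold limit. Of 20 changes of named genes, 20 missed the threshold with the t distribution, and the transcript of the smallest p was the one already used, so that setting left the values as they were. The depth of the libraries is unknown, so what it limits cannot be stated.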
